A study of Bos taurus with 14 samples.

Results

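The genes described here are those named for the proteins of the mitochondrial ribosome. They were all rows of the count table with a symbol of the form MRPL or MRPS followed by a number and with at least 1 read, which gave 77 of 18078 rows, 48 named for the large subunit (MRPL) and 29 for the small subunit (MRPS). The RNA came from back muscle (longissimus dorsi) taken at postnatal day 485 from 14 female cattle, each giving 1 sample. The restricted group held 7 offspring of dams that received less than their nutrient requirement between gestation day 158 and calving, and the control group held 7 offspring of dams that received 100% of it in that time. The restricted level is 70% in the description of the design and 50% in the treatment protocol of the samples, so it is not used as a number here. After birth both groups were treated the same, and from postnatal day 301 they could eat freely. Whether any animals had a parent in common is not stated, and p-values measure the spread between these animals.

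Mitochondria carry a ribosome of their own, which translates the few proteins encoded by mitochondrial DNA, all of them membrane subunits of the respiratory chain and the ATP synthase. Its RNA comes from the mitochondrial genome, whereas its proteins are encoded in the nucleus, made in the cytosol and imported. Many of these proteins have a counterpart in the bacterial ribosome, and others are found only in mitochondria. Skeletal muscle relies on this ribosome to keep up the oxidative capacity of its fibres.

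Depth ran from 13631018 to 17325779 counts per animal. Of the 12 muscle fibre markers looked for, 11 were in the table, and together they held 181249 to 212448 CPM (counts scaled to library size) in restricted and 156452 to 204144 CPM in control animals. The summed level of 9 adipocyte markers was 142.2 to 490.1 CPM in restricted and 198.7 to 344.8 CPM in control animals. Fibroblast markers summed to 470.5 to 1162 CPM in restricted and 403.6 to 1027 CPM in control animals, and T and NK cell markers to 1.66 to 5.96 CPM in restricted and 1.12 to 4.52 CPM in control animals, with CD3G, CD2, NKG7 and GZMB below the filter on low counts. For the mitochondrial ribosomal protein genes, 2 libraries stood apart within their groups, restricted 1 and control 3 (animals are numbered within their group in the order of the samples), and values that moved most without them are given both ways. In whole muscle, fewer cells of a type and less RNA per cell cannot be told apart.

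Of the 77 genes, 76 passed the filter on low counts and were tested, 47 MRPL and 29 MRPS. The exception was MRPL24 (ENSBTAG00000001520), a large subunit protein with a bacterial counterpart. It held 1 read over all 14 animals, in control 5, although its annotated length is 1001 bases. Every other member averaged between 40.4 reads per animal, for MRPL36, and 1798 reads, for MRPL51. Together the 76 genes took up 0.210% to 0.249% of restricted and 0.218% to 0.249% of control counts.

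Levels of the members differed widely, also among those whose products are built into the same particle. Divided by the annotated length, mean levels over the 14 animals ran from 6.63 CPM per kilobase for MRPL23 to 138.7 CPM per kilobase for MRPS36, a 20.9-fold span. The highest member carries a ribosomal name but is known for a different role. MRPS36, also called KGD4, is a component of the 2-oxoglutarate dehydrogenase complex of the TCA cycle, and it stood at 138.7 ± 14.8 CPM per kilobase (SD, n = 14), with animals from 104.6 to 155.4. Among the other genes named for the small subunit, MRPS33 followed at 88.3 ± 9.47 CPM per kilobase, then MRPS16 at 66.5 ± 7.55, MRPS14 at 57.6 ± 5.79 and MRPS25 at 37.9 ± 5.51. MRPS16 and MRPS14 have bacterial counterparts, and MRPS33 and MRPS25 do not. The ranges of MRPS33 (74.2 to 105.9) and MRPS16 (49.4 to 80.5) overlapped, as did those of MRPS16 and MRPS14.

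In the large subunit the order began with MRPL35 at 87.7 ± 8.88 CPM per kilobase, MRPL33 at 71.3 ± 6.43, MRPL34 at 56.2 ± 4.91, MRPL9 at 52.7 ± 4.67 and MRPL27 at 50.6 ± 6.16 (SD, n = 14). All 5 of them have counterparts in bacteria. The ranges of MRPL34, MRPL9 and MRPL27 overlapped one another. The median level was 21.97 CPM per kilobase over the 47 MRPL genes and 15.8 over the 29 MRPS genes. By class, it was 23.6 CPM per kilobase for 28 large subunit proteins of bacterial type and 20.6 for 19 found only in mitochondria, against 13.5 for 16 small subunit proteins of bacterial type and 16.1 for 10 found only in mitochondria. Levels per length depend on the annotated length, which ran from 303 bases for MRPL36 to 4114 bases for MRPL4, and reads of overlapping genes cannot be told apart here because the strand setting of the counting is not given in the sources used.

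**Figure D1:**
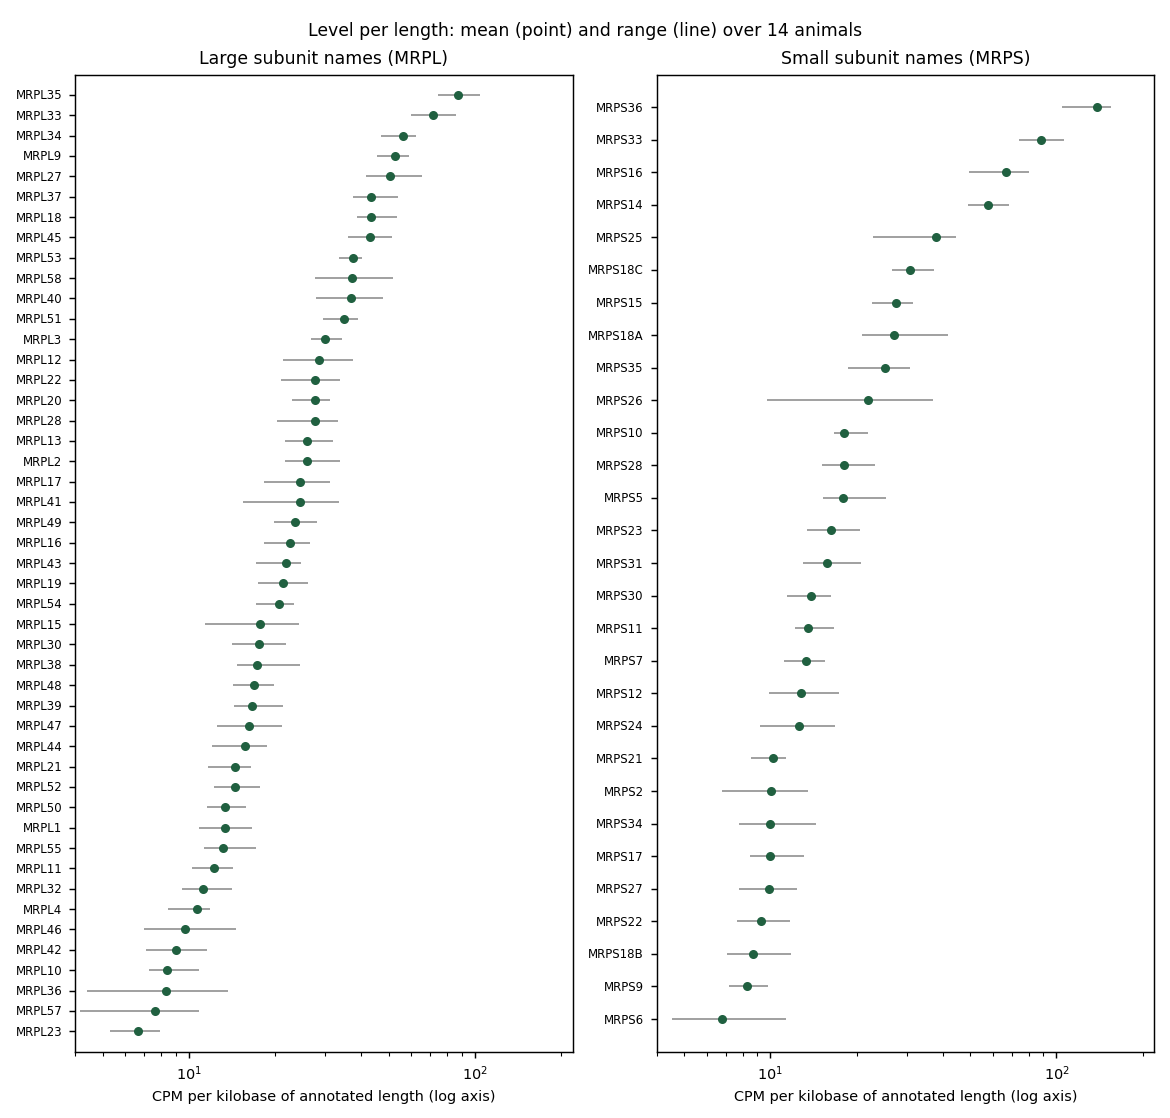
Level of each of the 76 members in CPM per kilobase of annotated length on a log axis, with the mean over 14 animals as a point and the range over animals as a line; MRPL genes are on the left and MRPS genes on the right. MRPS36 stood highest at 138.7 and MRPL23 lowest at 6.63 CPM per kilobase.

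The main comparison asked whether these genes differed in offspring muscle with the dam's feed level. None of the 76 members was called higher or lower. In edgeR's two-sided quasi-likelihood test, with p-values adjusted by Benjamini and Hochberg's method over 12187 genes, 0 members passed an adjusted p of 0.05, as did 0 genes in all (0%). DESeq2 and limma's voom also called 0 members, and DESeq2 called 1 gene in all, MTSS1L, which is no member. At an unadjusted p under 0.05 there were 4 members (5.26%), against 518 genes or 4.25% of all tested. Of these, 3 were higher in restricted animals (3.95% of members, 2.17% of all genes) and 1 was lower (1.32% of members, 2.08% of all genes).

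Log2 fold changes of restricted over control were above 0 for 42 members (55.3%) and below 0 for 34, against 49.7% and 50.3% of all genes. Their median was 0.015, with -0.00079 over all genes tested, and they ran from -0.33 for MRPS6 to 0.27 for MRPS31. The median was 0.0098 over MRPL genes and 0.024 over MRPS genes. Counting MRPS30 and MRPS18A, whose products sit in the large subunit of the mammalian particle, with the large subunit and leaving out MRPS36 gave 0.0098 and 0.023. The 95% intervals of 73 members (96.1%) excluded a 1.5-fold difference in both directions, against 77.8% of all genes, and those of 53 members (69.7%) excluded a 1.25-fold difference, against 42.8%. The 3 members whose intervals reached past 1.5-fold were MRPL36, MRPS26 and MRPS6.

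**Figure D2:**
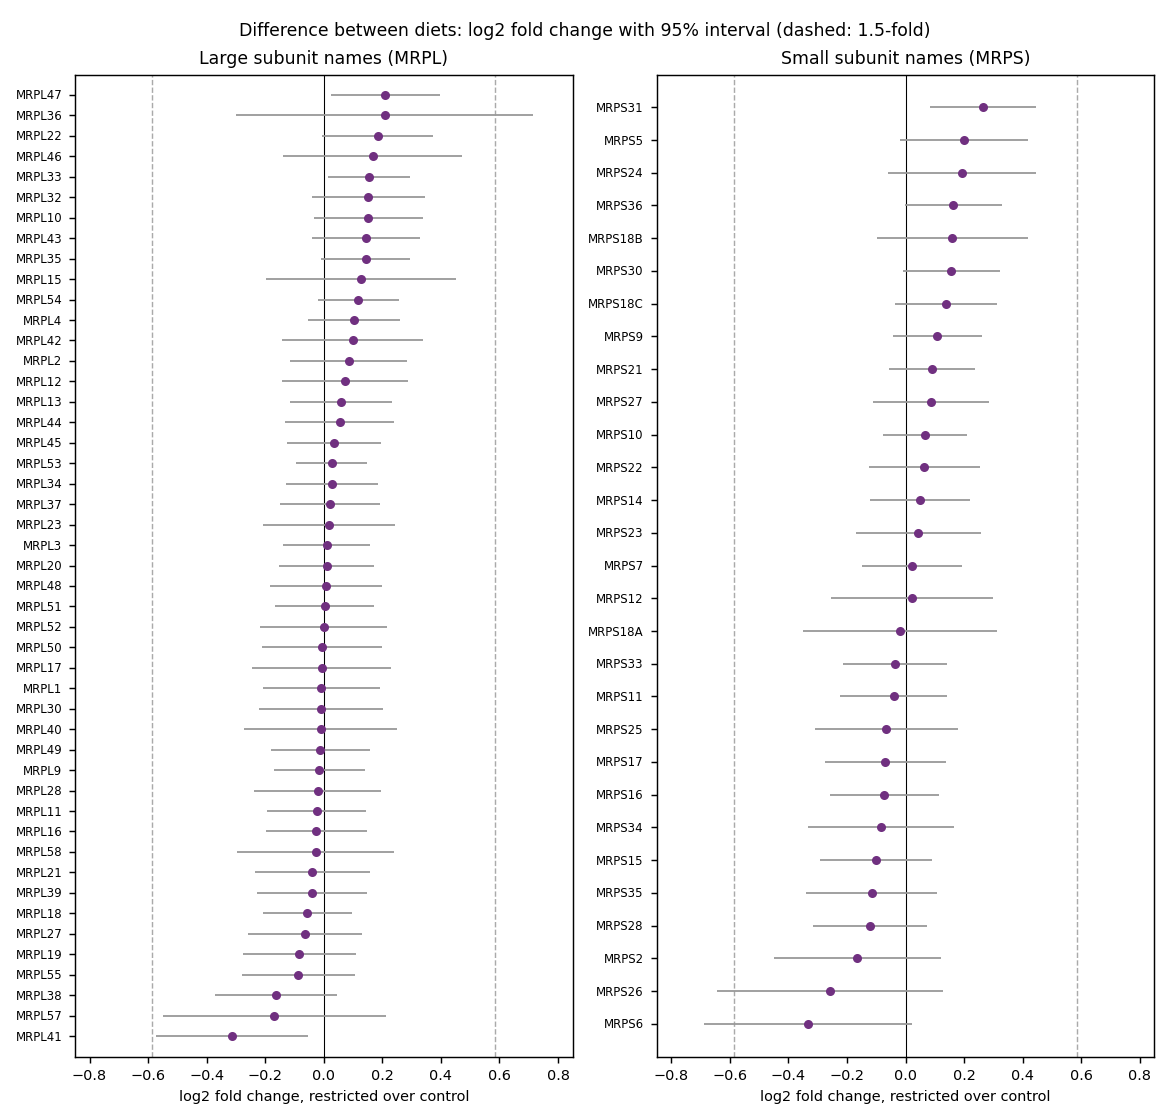
Log2 fold change of restricted over control for each of the 76 members, as a point with its 95% interval from edgeR's quasi-likelihood fit; the dashed lines mark a 1.5-fold difference. Points lie on both sides of 0 in both subunits, from -0.33 for MRPS6 to 0.27 for MRPS31.

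Summed over members, the diet groups overlapped and had similar medians, while the large subunit sums reached lower in control animals. The 47 large subunit genes together held 1506 CPM in the lowest, 1521 in the median and 1676 in the highest restricted animal, against 1406, 1520 and 1683 CPM in control animals. The 29 small subunit genes held 695.7, 748.0 and 821.9 CPM in restricted animals, against 687.7, 730.0 and 826.7 CPM in control animals. The control range enclosed the restricted range in both subunits. In these sums genes were assigned by name, so MRPS36, MRPS30 and MRPS18A counted with the small subunit. The ratio of the large sum to the small sum varied little, at 2.09 ± 0.0546 in restricted and 2.08 ± 0.0404 in control animals (SD, n = 7 each).

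The member with the smallest p was MRPS31 (ENSBTAG00000015522), a small subunit protein found only in mitochondria. It was at 20.6 CPM in the lowest, 22.7 in the median and 28.1 in the highest restricted animal, against 17.5, 18.7 and 22.6 CPM in control animals. All 7 restricted animals lay above the control median, and the groups overlapped between 20.6 and 22.6 CPM. The ratio was 1.202 with a 95% interval of 1.06 to 1.36, and edgeR's unadjusted p was 0.00682 with an adjusted p of 1. MRPL47 (ENSBTAG00000002462), which has a bacterial counterpart near the exit tunnel of the ribosome, was at 18.9, 21.5 and 26.7 CPM in restricted animals, against 15.8, 18.7 and 22.3 CPM in control animals. All restricted animals were above the control median, and restricted 1 was the highest of them. Its ratio was 1.16 (1.02 to 1.32), with an edgeR unadjusted p of 0.0296, or 0.0821 without restricted 1.

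MRPL33 (ENSBTAG00000055077), of bacterial type, was at 29.4, 33.5 and 38.3 CPM in restricted animals, against 26.6, 30.1 and 31.9965 CPM in control animals. No control animal reached the restricted median, and 1 restricted animal lay below the control median. The ratio was 1.11 (1.01 to 1.23), with an edgeR unadjusted p of 0.0343, or 0.0734 without control 3. MRPS36 (ENSBTAG00000011045), the dehydrogenase component, was at 59.7, 62.7 and 66.5 CPM in restricted animals, against 44.8, 57.2 and 64.5 CPM in control animals. The restricted animals were close together, all above the control median and the highest above every control animal, at a ratio of 1.12 (0.999 to 1.26).

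In the other direction the smallest p belonged to MRPL41 (ENSBTAG00000039138), a large subunit protein found only in mitochondria. It was at 9.94, 14.3 and 17.7 CPM in restricted animals, against 14.4, 17.7 and 21.5 CPM in control animals. No restricted animal was above the control median, restricted 4 was the lowest and control 3 the highest. The ratio was 0.804 (0.672 to 0.962), with an edgeR unadjusted p of 0.0204 and an adjusted p of 1. Without control 3 the unadjusted p by edgeR was 0.0521, so that no member was then lower at the threshold. MRPS6 (ENSBTAG00000012594), of bacterial type, was at 6.61, 7.96 and 13.05 CPM in restricted animals, against 8.45, 10.6 and 16.6 CPM in control animals. Restricted 6 and control 3 lay highest. All 7 control animals were above the restricted median, and 1 restricted animal was above the control median. The groups overlapped for MRPS6 between 8.45 and 13.05 CPM, at a ratio of 0.793 (0.620 to 1.01). Its log2 fold change of -0.334 was -0.208 without control 3 and -0.454 without restricted 6.

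MRPL38 (ENSBTAG00000022009), a mitochondria-specific protein of the large subunit's central protuberance, was at 21.7, 24.2 and 25.9 CPM in restricted animals, against 21.9, 24.4 and 36.0 CPM in control animals. The medians were nearly equal and control 2 was the highest animal, without which the log2 fold change was -0.0718, against -0.162 with all animals. MRPS26 (ENSBTAG00000000825), a small subunit protein found only in mitochondria, was at 7.25, 15.8 and 18.3 CPM in restricted animals, against 13.8, 16.3 and 27.5 CPM in control animals. Restricted 4 held the lowest value of all and control 3 the highest. Its log2 fold change of -0.257 was -0.117 without control 3, -0.141 without restricted 4 and -0.316 without restricted 2, the restricted animal with the highest value.

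**Figure D3:**
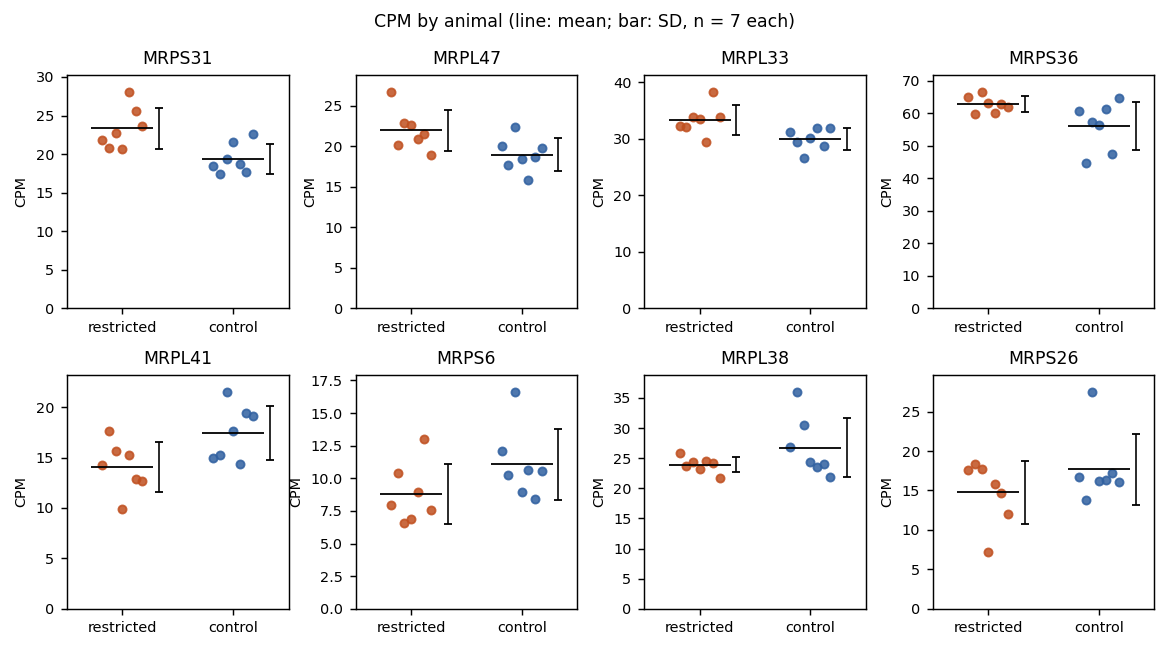
CPM in each animal for the 4 members with the smallest p in each direction (upper row higher, lower row lower in restricted animals), with restricted animals left of control animals, the mean as a line and the SD as a bar (n = 7 each). The groups overlapped for all 8, and MRPS26 had its extremes in restricted 4 at 7.25 CPM and control 3 at 27.5 CPM.

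Over all members, the CPM values of the 2 groups were without overlap for 0 of 76, against 0.0574% of all genes tested. For 11 members (14.5%) the 7 restricted values were all above or all below the median of the controls, against 5.6% of all genes, with 9 above and 2 below. Members share libraries and vary together in part, so these are not 11 separate observations.

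The other genes of mitochondrial translation gave no calls either. Of 15 translation factors tested, 1 was higher at an unadjusted p under 0.05 and 0 were lower, and the median log2 fold change was 0.035. The 1 was MTIF2, the initiation factor that brings the first tRNA to the mitochondrial ribosome, at 8.59 ± 1.37 CPM in restricted and 7.17 ± 0.873 CPM in control animals (SD, n = 7 each), while TUFM, the elongation factor, was at 94.0 ± 11.5 CPM in restricted and 92.4 ± 7.45 CPM in control animals. PDF, the peptide deformylase, followed MTIF2 in order of p, at a ratio of 0.823 (0.646 to 1.05). Of 27 assembly factors, 1 was higher and 1 lower at that threshold. TFB1M, which methylates the small ribosomal RNA, was at 17.9 ± 0.434 CPM in restricted and 15.5 ± 1.21 CPM in control animals, and RPUSD3, a pseudouridine synthase family member of the large subunit's maturation, was at 15.8 ± 2.31 CPM in restricted and 19.7 ± 2.56 CPM in control animals. Of 6 further genes of the particle and its membrane anchor that bear other names, DAP3, a GTP-binding small subunit protein, had the smallest p, at 16.7 ± 1.53 CPM in restricted and 13.95 ± 1.40 CPM in control animals, a ratio of 1.201 (1.06 to 1.36). GADD45GIP1, a large subunit protein, came next, at a ratio of 0.857 (0.653 to 1.12).

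Of 22 mitochondrial aminoacyl-tRNA synthetases, 0 had an unadjusted p under 0.05, and the smallest p-values belonged to RARS2 and GARS, at ratios of 1.08 (0.975 to 1.19) and 1.09 (0.954 to 1.248). Of 23 genes in a list of mitochondrial transcription and RNA processing, which also held a DNA polymerase, 1 was higher and 1 lower at that threshold. PNPT1, an RNA-degrading enzyme, was at 27.2 ± 5.13 CPM in restricted and 21.6 ± 3.25 CPM in control animals, and POLG, the mitochondrial DNA polymerase, at 64.5 ± 4.79 CPM in restricted and 70.7 ± 4.30 CPM in control animals (SD, n = 7 each). None of 15 regulators of mitochondrial biogenesis had an unadjusted p under 0.05 by edgeR. YY1, a transcription factor, and ESRRA, a nuclear receptor, came first with ratios of 0.926 (0.841 to 1.02) and 1.10 (0.933 to 1.30), and the coactivator PPARGC1A was at 23.6 ± 5.88 CPM in restricted and 25.0 ± 4.35 CPM in control animals. No gene of these lists had an adjusted p under 0.05 in that test. The same held for the 72 nuclear-encoded subunits of oxidative phosphorylation, of which 2 were higher and 0 lower at an unadjusted p under 0.05 with a median log2 fold change of 0.071, and for the 77 cytosolic ribosomal proteins, with 1 higher, 0 lower and a median of -0.012.

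Members varied less between animals than most genes. After removing the group means, the SD of log2 CPM had a median of 0.166 over members, against 0.230 over all genes tested and 0.208 over the 8947 genes with a mean read number within the members' range. An SD below the members' median was found in 27.2% of all genes and in 31.2% of those 8947. Counting error alone gives a median SD of 0.075 on this scale for the members and 0.0952 for the genes in their range. MRPL53, a mitochondria-specific protein near the stalk of the large subunit, was the steadiest, with an SD of 0.0822 and values of 103.2 to 117.1 CPM in restricted and 97.5 to 114.9 CPM in control animals. MRPS21, MRPS9 and MRPL33, all of bacterial type, followed with SDs of 0.102, 0.104 and 0.105.

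The largest SDs belonged to MRPL36 (0.463), MRPS26 (0.398), MRPL57 (0.370) and MRPL15 (0.338). MRPL36, the smallest of the bacterial-type large subunit genes by annotated length, rested on 19 to 69 reads per animal, where counting error alone gives an SD of 0.227. MRPL15, of bacterial type, was not short of reads, with 417 to 915 per animal and a counting SD of 0.0559. It was at 26.9, 46.6 and 57.6 CPM in the lowest, median and highest restricted animal, against 27.9, 41.2 and 47.9 CPM in control animals. Restricted 2, restricted 4 and control 3 were the low ones. MRPL15, MRPL4 and MRPL1 are the members whose rows carry no gene type in the table.

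Across animals, restricted 1 and control 3 carried the highest levels of many members at once. In restricted 1, 61 of 76 members were above the restricted mean (38 of 47 large and 23 of 29 small subunit genes), while 50.5% of all genes were. In control 3, 69 of 76 were above the control mean (42 large and 27 small), while 48.3% of all genes were. Restricted 1 was the highest of its 7 animals for 27 members (35.5%, against 14.2% of all genes) and control 3 for 35 members (46.1%, against 16.2% of all genes). The size of the shift was small, at a mean of 0.116 log2 above the group mean in restricted 1 and 0.194 in control 3. Members were lowest as a whole in restricted 4 and control 4, at -0.0899 and -0.0880.

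The same animals stood high for other gene groups as well. Nuclear-encoded subunits of oxidative phosphorylation summed to 18218 CPM in restricted 1, where the other restricted animals had at most 15146 CPM, and to 16043 CPM in control 3, the highest control animal. Cytosolic ribosomal proteins summed to 21692 CPM in control 3, where the other control animals had at most 18860 CPM, and to 17841 CPM in restricted 1, within the restricted range of 14962 to 18161 CPM. Their part in the levels of the members was not tested.

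**Figure D4:**
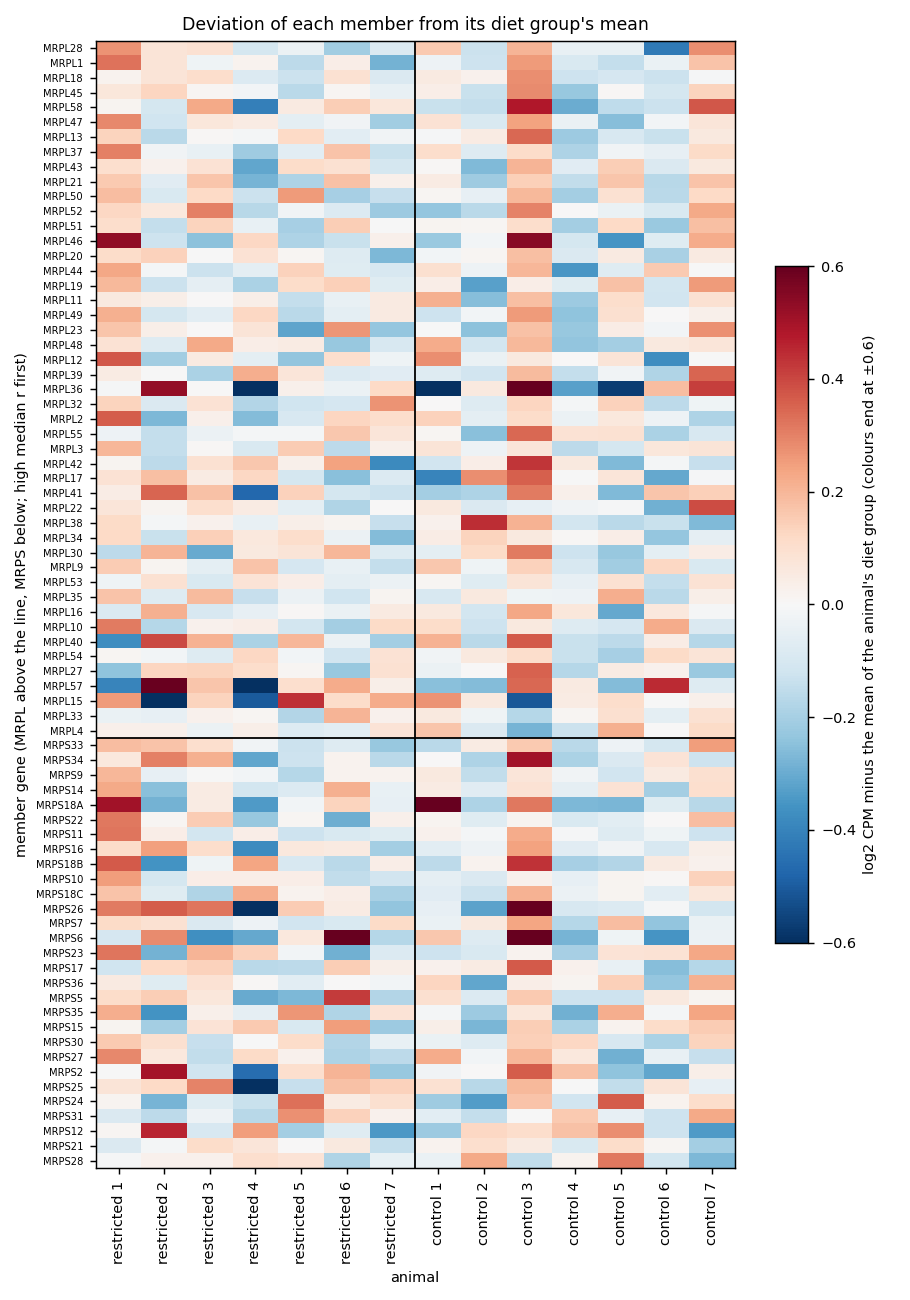
Log2 CPM of each of the 76 members (rows) in each animal (columns, restricted left of control), as the difference from the mean of the animal's diet group, in red where higher and blue where lower. The columns of restricted 1 and control 3 are red for most members, 61 and 69 of 76, and MRPL15 and MRPL4 are blue in control 3.

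The covariation of members over the 14 animals was positive but weak. With group means removed, the median Pearson's r over the 2850 pairs was 0.212, against -0.0014 over all pairs of genes tested and -0.00066 over pairs in the members' range of reads. A value above 0 was found in 73.5% of pairs of members and 49.8% of all pairs, and a value above 0.5 in 14.5% and 4.92%. The median was 0.226 within the large subunit, 0.172 within the small subunit and 0.210 between them, so pairs within a subunit were about as correlated as pairs across. The mitochondria-specific large subunit proteins had a median of 0.281 and those of bacterial type 0.201, and in the small subunit the medians were 0.171 and 0.164. Without control 3 the 4 medians were 0.106, 0.128, 0.0979 and 0.0534, so the order turned in the large subunit only. Without restricted 1 as well they were 0.101, 0.0776, -0.0268 and 0.0301, and the order then turned in the small subunit only. All pairs share the same 14 libraries, so these values are descriptions without a test.

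The covariation was lower without the 2 libraries that stood apart. The median r was 0.112 without control 3 and 0.0662 without both control 3 and restricted 1, a choice made after seeing the data. Its standard error, from leaving out each animal in turn, was 0.123, and the fall without control 3 lay within it. The 2 animals were picked because many members were high in them, and leaving out such animals lowers r by itself. These falls therefore cannot show how much of the covariation rested on them. Without both, 57.1% of pairs of members were above 0, against 49.9% of all pairs, and 9.79% were above 0.5, against 6.58%. The median was then 0.0784 within the large subunit and 0.0278 within the small subunit. It was 0.201 in the animals whose titles begin with Y and 0.198 in those whose titles end in A, letters whose meaning the labels do not give.

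Genes of 2 other kinds of large complex were more tightly correlated in the same animals. The median r was 0.5997 within the 72 subunits of oxidative phosphorylation and 0.711 within the 77 cytosolic ribosomal proteins. It was 0.513 and 0.575 without control 3 and restricted 1. Those 2 animals were picked by the levels of the members, so these falls cannot be set against that of the members. Members had a higher median r with those groups than with one another, at 0.318 with oxidative phosphorylation subunits and 0.321 with cytosolic ribosomal proteins, or 0.163 and 0.141 without the 2 animals. These differences between gene groups were not tested. The median r of members was 0.161 with mitochondrial translation factors, 0.124 with genes of mitochondrial transcription and RNA processing, 0.0852 with assembly factors and 0.0726 with aminoacyl-tRNA synthetases. With the biogenesis regulators it was -0.0725. With markers of other cells it was 0.120 for adipocytes, -0.0498 for fibroblasts, -0.135 for endothelium, -0.0488 for smooth muscle and pericytes, and -0.0126 for macrophages. It was 0.0907 with slow and 0.147 with fast fibre markers. With measures of the libraries it was 0.0246 for the total count and -0.186 for the scaling factor. With the share of counts in the 10 most abundant genes it was 0.209. Over all genes tested the medians were -0.00998, 0.00666 and -0.0139 in the same order. The part of these measures in the covariation was not tested.

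**Figure D5:**
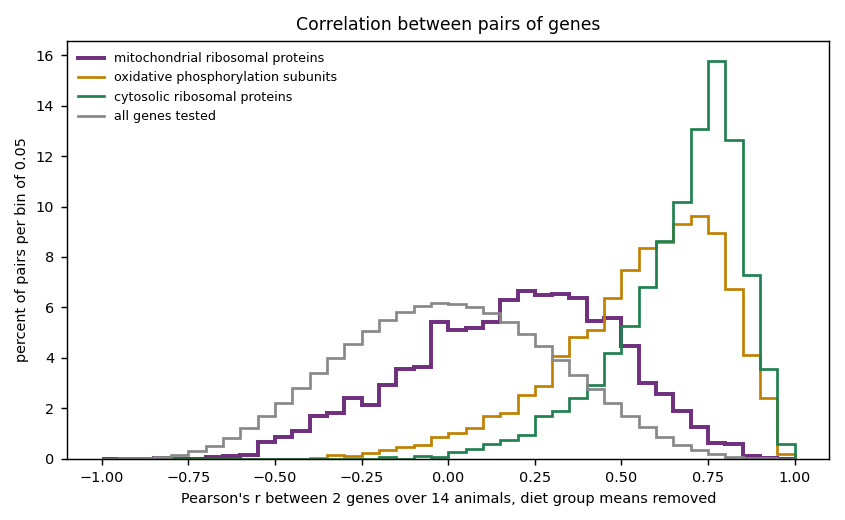
Distribution of Pearson's r between pairs of genes over 14 animals after removing diet group means, as the percent of pairs in each bin, for mitochondrial ribosomal proteins, oxidative phosphorylation subunits, cytosolic ribosomal proteins and all genes tested. The medians are 0.212, 0.5997, 0.711 and -0.0014.

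Members differed in how they followed the rest. The highest median r with the other members was 0.398 for MRPL28 and 0.397 for MRPL1, then 0.385 for MRPL18 and 0.379 for MRPL45. MRPL28, MRPL1 and MRPL18 are of bacterial type, MRPL1 forming a stalk of the large subunit, and MRPL45 is a mitochondria-specific protein at the exit tunnel that helps anchor the ribosome to the inner membrane. Without control 3 these medians were 0.331 for MRPL28, 0.286 for MRPL1, 0.168 for MRPL18 and 0.229 for MRPL45, and without restricted 1 as well they were 0.208, 0.182, 0.166 and 0.170 in the same order. The lowest medians were -0.222 for MRPS28, a small subunit protein of bacterial type, -0.154 for MRPL4, -0.145 for MRPL33 and -0.112 for MRPL15. The negative values of MRPL4, MRPL33 and MRPL15 turned to 0.148, 0.0285 and 0.0019 without control 3, in which all of them were the lowest of their group, and that of MRPS28 was -0.181.

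Of the 2850 pairs, 289 (10.1%) had a positive and 12 (0.421%) a negative Pearson's r at an unadjusted two-sided permutation p under 0.05 (100000 permutations within diet groups), and 0 passed after Benjamini-Hochberg adjustment over the pairs. Over all pairs of genes tested, with 1000 permutations, 3.1% were positive and 2.89% negative at that threshold. With the same 1000 permutations it was 285 and 10 pairs of members. The highest r was 0.922 for MRPS26 and MRPS16 (permutation p = 0.00062, adjusted 0.125), with a Spearman's rho of 0.851 (permutation p = 0.00301). Pearson's r was 0.812 without restricted 4 and control 3, the animals farthest out for MRPS26. MRPS23 and MRPS10, both of the small subunit, followed at 0.895 (permutation p = 3e-05, adjusted 0.0665), with a Spearman's rho of 0.851 (permutation p = 0.00089) and an r of 0.845 without restricted 1 and restricted 6. The most negative pair was MRPL42 and MRPL4 at -0.802 (permutation p = 7e-05, adjusted 0.0665), with a Spearman's rho of -0.714 (permutation p = 0.0036) and an r of -0.731 without control 3 and restricted 7.

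Only 1 pair of members, MRPL46 and MRPS11, are direct neighbours among the protein-coding genes of RefSeq's ARS-UCD2.0 annotation, in which all 77 symbols were found. Their Pearson's r was 0.757 (permutation p = 0.00798, adjusted 0.275) and their Spearman's rho 0.481 (permutation p = 0.0899). Without control 3 and restricted 1, the animals farthest out for MRPL46, r was 0.072, so the relation rested on those animals. The same annotation places MRPL24, the member with 1 read, between HDGF and METTL25B.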

How the data were processed

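The authors deposited unnormalized read counts for each gene and animal, with a gene length in bases. FastQC, HISAT2, featureCounts, edgeR and the build ARS-UCD1.2 are named in the submitters' processing notes; their versions, the strand setting and the handling of multi-mapped reads are not stated there.

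The tests used edgeR 4.0.16 in R 4.3.3. Low counts were removed with filterByExpr (minimum count 10, minimum total 15), TMM gave the scaling, and restricted was tested against control with the quasi-likelihood F test, without covariates, over 12187 genes, with Benjamini-Hochberg adjustment at 0.05. DESeq2 1.42.0 and limma 3.58.1 were alternatives. Correlations used log2 CPM (prior count 2) after removing group means. The fit was tested on simulated data. No 2 libraries agreed within sampling noise (chi-square per degree of freedom of at least 12.6). Groups come from the treatment label, and replicate numbers only name animals. The members and lists were chosen with earlier results of these data known. Named members were those with the 4 smallest p in each direction, the 5 highest levels per length in each subunit, and the 4 highest and lowest SDs and median correlations; list genes were the 2 with the smallest p, and TUFM and PPARGC1A were added after their values were seen. The rule named coding length, but the deposited gene length was used. MRPL14 was not analysed here, and 2578 rows had no symbol. Sequences and coordinates are not given, since the reference table is of another build.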

Additional observations from a re-analysis of the deposited data

Results flagged for a closer look

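In 5 of the 62 sets of 7 animals looked at (each of the 28 members named by rule, the 2 subunit sums and their ratio, in each diet group), the highest or lowest animal was separated from the nearest other by more than Dixon's 95% critical share of the group's range. Chance does this in about 1 in 20 unselected sets, a rate that does not hold here because some members were named for a large SD or a high correlation and all sets share the same libraries. In all 5 the animal was control 3. It was the highest control animal for MRPS26 at 27.5 CPM (the others 13.8 to 17.2), for MRPL27 at 43.5 CPM (29.1 to 35.2), for MRPS16 at 55.0 CPM (43.4 to 47.7) and for MRPL18 at 50.9 CPM (38.4 to 43.6). It was the lowest control animal for MRPL15 at 27.9 CPM (39.7 to 47.9).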

How the results depend on the processing

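No member passed an adjusted p of 0.05 under any of the 25 alternatives to the fit. Over all genes 1 passed with DESeq2 (MTSS1L), 1 with only titles ending in A (a row without a symbol) and 0 in the other 23. The 518 genes at an unadjusted p under 0.05 became 869 without a filter on low counts. The 4 members at an unadjusted p under 0.05 became 7 with limma's voom, 2 in animals with a title beginning with Y, 2 in those with a title ending in A, 2 without control 3 and restricted 1 (chosen after seeing the data), and 3 to 7 without 1 animal, with 7 without control 7, restricted 4 or restricted 6. The median log2 fold change of members, 0.015, ran from -0.008 without restricted 1 to 0.047 without control 3 and from -0.040 with only titles ending in A to 0.069 without control 7, restricted 4 and restricted 7. With library size scaling it was -0.035, where the median over all genes was -0.050. The 8 members named for their p kept their direction under all 25 alternatives. They were chosen for their p in these same animals, and most alternatives refit all or nearly all of them. A kept direction is therefore no separate support. Without control 7, restricted 4 and restricted 7 the log2 fold change was -0.18 for MRPL41, against -0.31, and -0.093 for MRPS26, against -0.26; with only titles ending in A that of MRPS26 was -0.44. The median r of members, 0.212, was 0.0662 without control 3 and restricted 1, and 0.112 to 0.254 without 1 animal. No paired analysis was possible because the labels pair no animals. Depth limits MRPL36, MRPS6 and MRPL57 most among the tested members named here, and MRPL24 did not pass the filter on low counts.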
